A study of Homo sapiens with 6 samples.

Results

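The genes described here encode the proteases stored in mast cell granules, namely the tryptases TPSAB1, TPSB2, TPSD1 and TPSG1, carboxypeptidase A3 (CPA3), chymase (CMA1) and cathepsin G (CTSG). Their 7 names were chosen from knowledge of mast cell granules and with the deposited comparison of the hairpins already known, and 6 of them were among the 31999 genes of the deposited table. CMA1 was not among those genes. HEL is an established human erythroleukemia cell line, and the cells carried a small hairpin RNA against TMIGD2 (shTMIGD2, 3 libraries) or a control hairpin (shCtrl, 3 libraries). Both groups were grown in the same medium, and the labels do not say which TMIGD2 hairpin, or how many, the shTMIGD2 libraries carried.

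The only measurement used was 1 mean log2 CPM per gene, computed by the authors over all 6 libraries of both hairpins. CPM is the read count scaled to the library total. The lowest value listed was 0.0736 CPM, shared within 0.01 on the log2 scale by 2234 genes. The smallest levels may thus include an amount added before logs were taken, which was not tested. Whether logs were taken before or after averaging is not given in the sources used here. This measurement has no value per library or per group, so no error could be attached to any level. For the same reason the order of genes could not be set against a spread, and levels in shTMIGD2 and shCtrl cells were not compared here. The total count per library is likewise unknown from this measurement. TMIGD2 itself, a CD28-family receptor on the minus strand of chromosome 19 (4292227 to 4302431, GRCh38), had a mean log2 CPM of 4.08, which does not check the knockdown because both groups are in it.

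Mast cells package their proteases in secretory granules, bound to the proteoglycan serglycin, and release them in active form on degranulation. Tryptases are trypsin-like serine proteases, chymase and cathepsin G are chymotrypsin-like serine proteases, and carboxypeptidase A3 is a zinc enzyme that removes amino acids from the carboxyl end of peptides. Tryptase, chymase and CPA3 are widely used to identify mast cells, whereas cathepsin G is also a product of neutrophil precursors.

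The tryptase genes lie side by side on chromosome 16, within 37.4 kb (chr16:1221651-1259008, GRCh38, GENCODE 44). TPSB2 (chr16:1227272-1230184, minus strand) and TPSAB1 (chr16:1240379-1242554, plus strand) encode the beta and alpha/beta tryptases and were nearly the same in sequence. Their coding sequences in the reference, 825 bases each in the canonical transcripts, differed at 4 bases and shared an identical run of 667 bases. The 60 coding bases that held most of these differences are shown because TPSAB1 and TPSB2 differ there. Capitals mark the 3 bases that differ between the genes. Both stretches lie in exon 3, at chr16:1241187-1241246 on the plus strand for TPSAB1 and at chr16:1229644-1229703 on the minus strand for TPSB2.
TPSAB1: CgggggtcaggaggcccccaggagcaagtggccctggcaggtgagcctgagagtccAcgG
TPSB2: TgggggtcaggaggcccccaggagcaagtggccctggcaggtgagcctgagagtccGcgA

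The 60 coding bases that end with the codon for the histidine of the catalytic triad show how the other tryptases depart from this pair. Capitals mark bases that differ from TPSAB1, of which TPSB2 had 0, TPSD1 had 2 and TPSG1 had 15. The stretches lie at chr16:1241254-1241313 (TPSAB1, exon 3, plus strand), chr16:1229577-1229636 (TPSB2, exon 3, minus strand), chr16:1256617-1256676 (TPSD1, exon 2, plus strand) and chr16:1223434-1223493 (TPSG1, exon 3, minus strand).
TPSAB1: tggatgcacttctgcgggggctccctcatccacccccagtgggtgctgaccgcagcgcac
TPSB2: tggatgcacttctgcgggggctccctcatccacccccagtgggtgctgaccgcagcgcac
TPSD1: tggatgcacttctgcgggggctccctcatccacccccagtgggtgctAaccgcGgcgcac
TPSG1: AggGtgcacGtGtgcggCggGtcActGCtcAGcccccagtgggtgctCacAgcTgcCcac

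Across the whole coding sequence, TPSD1, which encodes the shorter delta tryptase, was identical to TPSAB1 at 88.9% of 705 aligned bases. TPSG1, the gene of the membrane-anchored gamma tryptase, was identical at 67.2% of 786 aligned bases. CMA1 and CTSG were identical to each other at 62.7% of 727 aligned bases, and to TPSAB1 at 54.7% and 57.3%. The coding sequence had 726 bases in TPSD1 and 963 bases in TPSG1.

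CPA3 was the most abundant granule protease transcript, with a mean log2 CPM of 7.04 (132 CPM). CPA3 (chr3:148865296-148897203, plus strand, 11 exons) ranked 1659 from the top of the 31999 genes, above 94.8% of them. TPSAB1 followed with a mean log2 CPM of 2.94 (7.66 CPM) and TPSB2 with 2.88 (7.36 CPM). TPSD1 (chr16:1256059-1259008, plus strand) had a mean log2 CPM of 1.86 (3.63 CPM). These tryptase transcripts stood above 69.5%, 69.3% and 64.8% of all genes listed, respectively.

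The other listed members were below the level of 1 CPM. CTSG (chr14:24573518-24576250, minus strand) had a mean log2 CPM of -0.92 (0.53 CPM), just above the median of -0.97 over all genes. TPSG1 (chr16:1221651-1225268, minus strand) had a mean log2 CPM of -3.18 (0.11 CPM), which lies near the lowest value listed, -3.76. That lowest value was shared, within 0.01, by 2234 genes, so levels close to it stand for few or no reads. Of the 6 listed members, 4 reached 1 CPM, as did 43.8% of all genes listed.

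**Figure D1:**
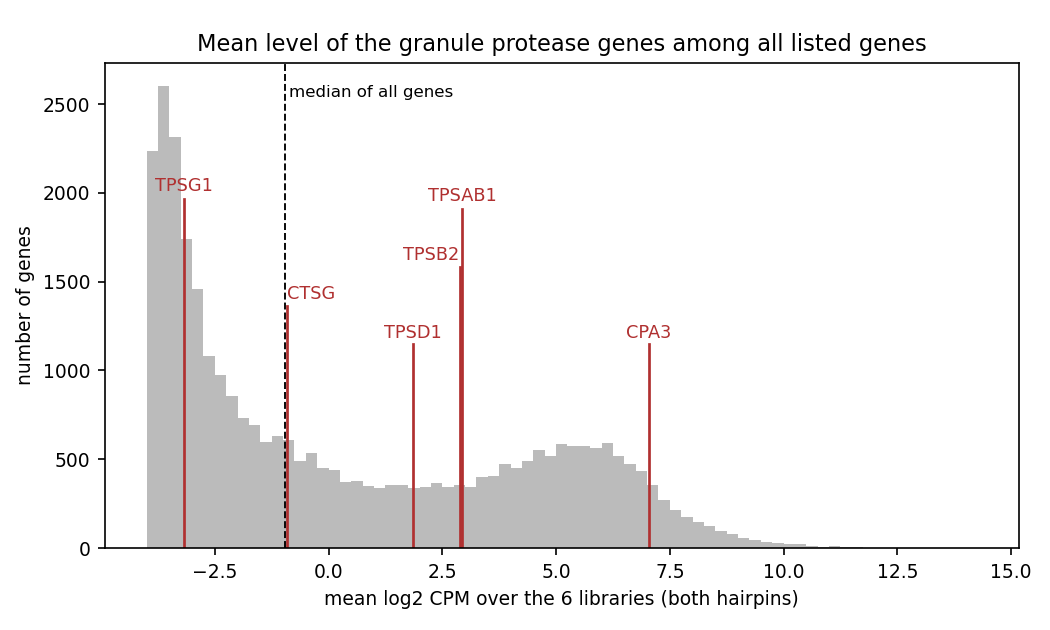
Distribution of the mean log2 CPM over the 6 libraries (horizontal axis) for all 31999 genes (grey bars, number of genes), with a red line at each listed granule protease gene, whose height has no meaning, and the median of all genes as a dashed line. CPA3, at 7.04, stands in the upper part of the distribution, TPSAB1, TPSB2 and TPSD1 between 1.86 and 2.94, and TPSG1 at -3.18 among the genes with the lowest values.

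How these ranks read depends on the genes they are set against. Of the 6 listed members, 5 were above the median of all 31999 genes, many of which are barely expressed. Only CPA3 was above the median of 3.63 of the 16649 protein-coding genes, and only CPA3 was above the median of 4.55 of the 14000 genes at 1 CPM or more. CPA3 was above 90.2% of the protein-coding genes, whereas TPSAB1 was above 44.9%, TPSB2 above 44.5%, TPSD1 above 38.9%, CTSG above 26.8% and TPSG1 above 11.1%.

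Levels of different genes were set side by side per kb of the longest annotated transcript, since a longer transcript yields more reads. On this scale CPA3 was at 74.8 CPM per kb, above 7.47, the median of the 12925 genes at 1 CPM or more that had a length. TPSAB1 was at 5.65 CPM per kb, TPSB2 at 5.44 and TPSD1 at 2.31, all below that median. CTSG was at 0.388 and TPSG1 at 0.0986 CPM per kb. The level of CPA3 per kb was 5.55 times that of the 4 tryptases summed, which was 13.5 CPM per kb. The order of the 6 genes was the same when the coding length, the merged exons or the canonical transcript was used as length. For the other genes named below, levels per kb were computed with the longest transcript only.

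Because reads from near-identical tryptases can be counted for the wrong gene, their sum was also taken. Reads counted for none of them are missing from the sum as well, so it can be too low. The ratio and share of CPA3 set against the tryptases can then be too high. The 4 tryptases together reached 18.8 CPM, and TPSAB1 and TPSB2 alone 15.02 CPM. TPSAB1 made up 40.8% of the sum, TPSB2 39.2%, TPSD1 19.3% and TPSG1 0.588%. TPSAB1 and TPSB2 differed by 0.058 on the log2 scale, and how their reads were split between them cannot be seen in the table. Of the 151 CPM of all 6 listed members, CPA3 held 87.2%.

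The extent of shared sequence was measured on the canonical transcripts, by asking which windows of 100 bases were found exactly in an annotated transcript of another gene. For TPSAB1 this held for 59.5% of 1067 windows and for TPSB2 for 59.6% of 1066, and in each of them all 635 such windows were found in the other gene of the pair. For TPSD1 it held for 7.73% of 1474 windows, each found in TPSAB1. No window of TPSG1, CPA3, CMA1 or CTSG was found in another gene, also with windows of 50 bases. Where the copies in HEL cells match the reference, a read of 100 bases that starts at a shared window cannot be assigned from its own sequence. The sequences of these genes in HEL cells were not examined. The read length, and how the counting treated reads with several positions, are not given in the sources used here.

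**Figure D2:**
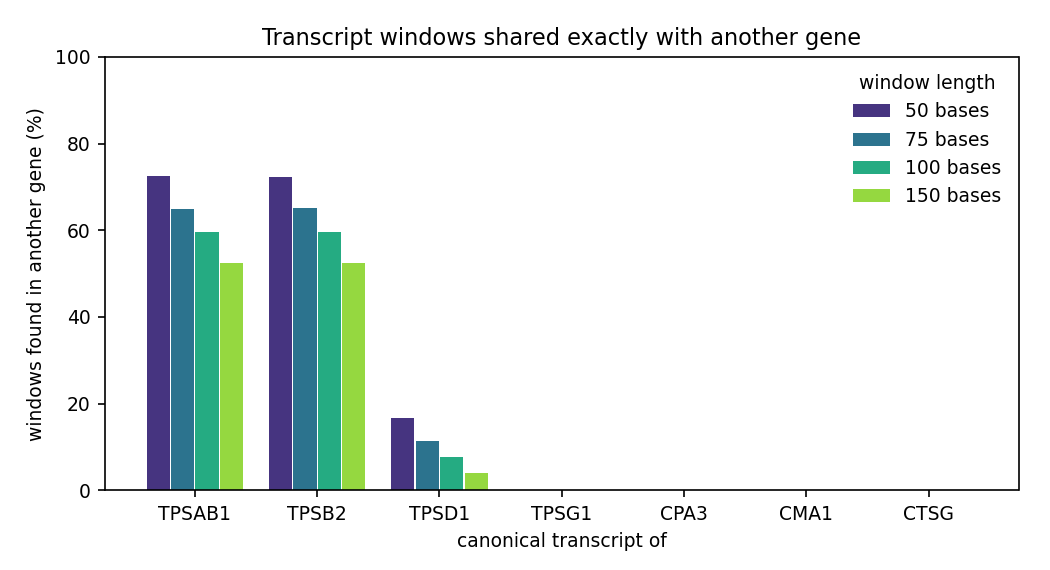
Share of the windows of each canonical transcript found exactly in an annotated transcript of another gene (vertical axis, %), for windows of 50, 75, 100 and 150 bases (bars from dark to light). TPSAB1 and TPSB2 share between 52.4% and 72.5% of their windows, TPSD1 between 4.07% and 16.7%, and the bars of TPSG1, CPA3, CMA1 and CTSG are at 0.

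Within the chromosome 16 cluster the level was uneven. TPSG1 lies next to TPSB2 on the same strand, and was at 0.0986 CPM per kb beside 5.44 for TPSB2. Its far end overlaps the end of CACNA1H, a calcium channel gene on the opposite strand, which was at 0.0295 CPM per kb. On the other side of TPSD1, the serine protease pseudogene PRSS29P was at 0.150 CPM per kb, and the tryptase pseudogene TPSP2 was not among the genes listed. In mean log2 CPM, CACNA1H had -2.05, TPSG1 -3.18 and PRSS29P -3.48, so their order was the reverse of that per kb. The levels of TPSG1 and PRSS29P lie near the lowest value listed, -3.76, and stand for few or no reads. TPSB2, TPSAB1 and TPSD1 thus stood between listed neighbours of lower level, TPSG1 on one side and PRSS29P on the other. The annotation also places a non-coding RNA gene inside TPSD1 on the same strand, one inside TPSG1 on the opposite strand and one across CPA3 on the opposite strand, and the strand setting of the counting is not given in the sources used here.

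**Figure D3:**
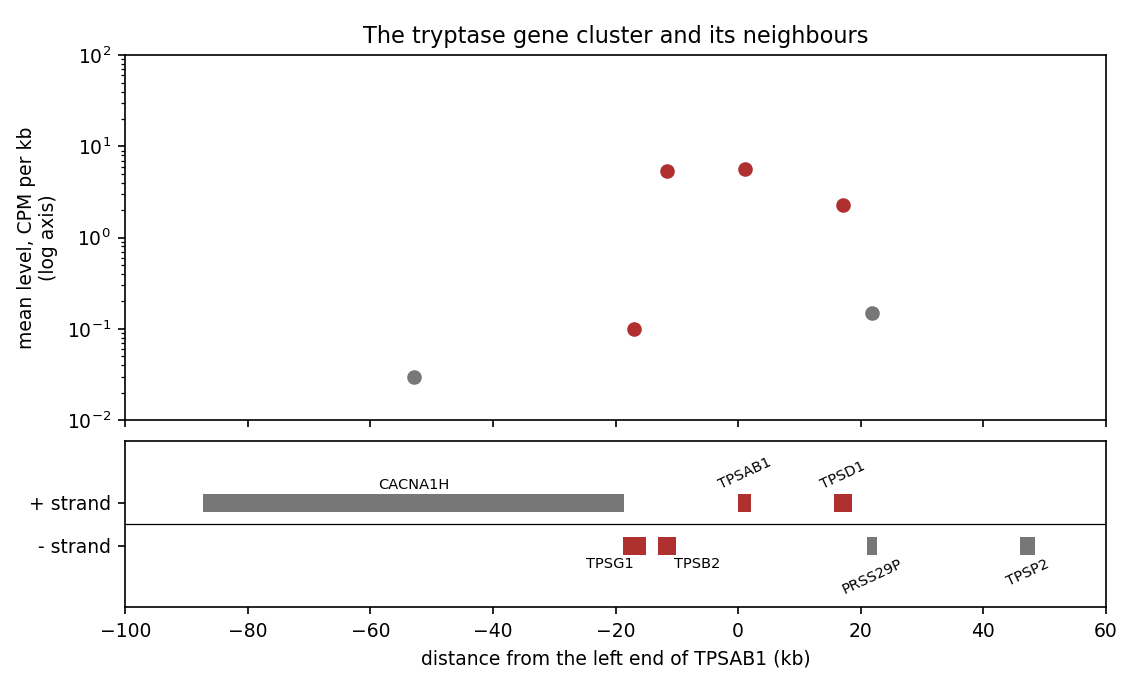
Mean level per length (upper panel, CPM per kb, log axis) and position (lower panel, by strand) of the tryptase genes (red) and the named neighbouring protein-coding genes and unprocessed pseudogenes (grey), against the distance from the left end of TPSAB1 in kb. TPSB2, TPSAB1 and TPSD1 lie between 2.31 and 5.65 CPM per kb, above TPSG1, CACNA1H and PRSS29P, and TPSP2 has no point because it was not listed. Before division by length, TPSG1 and PRSS29P are near the lowest value listed.

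The neighbours of the other members were also described. CPB1, the pancreatic carboxypeptidase gene upstream of CPA3 on chromosome 3, was at 0.0486 CPM per kb beside 74.8 for CPA3. On the other side of CPA3, the pseudogene UBQLN4P1 was at 1.61 CPM per kb and GYG1, which encodes the glycogen primer glycogenin, at 9.34. On chromosome 14, CTSG lies between CMA1 and the granzyme genes GZMH and GZMB, whose proteases are made by cytotoxic lymphocytes. CMA1 and GZMH were not listed, and GZMB was at 0.273 CPM per kb beside 0.388 for CTSG.

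Genes that process and store these proteases were mostly expressed, with 4 of 5 at 1 CPM or more. CTSC, the dipeptidyl peptidase that trims granule serine proteases to their active form, had a mean log2 CPM of 7.09 (18.01 CPM per kb). CTSB and CTSL, lysosomal cysteine proteases, had 7.59 and 4.64 on the same log2 scale. SRGN, which encodes the core protein of serglycin, was at 83.3 CPM per kb, next to 74.8 for CPA3. NDST2, an enzyme of heparin synthesis in mast cells, had a mean log2 CPM of -1.76 and was the gene under 1 CPM.

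Of 7 genes for inhibitors of such proteases, 4 were listed, all above 1 CPM. SERPINB1, an inhibitor of neutrophil serine proteases that include cathepsin G, was at 57.1 CPM per kb. SERPINB6, which also inhibits cathepsin G, was at 11.2 CPM per kb, and LXN, which encodes the carboxypeptidase inhibitor latexin, was at 6.44. SERPINB9, the granzyme B inhibitor, was at 0.683 CPM per kb. SERPINA1, SERPINA3 and SLPI, secreted inhibitors, were not listed.

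Other proteases of the same kinds were low, apart from 2 genes. Of 9 granule serine proteases of neutrophil precursors and cytotoxic lymphocytes, 5 were listed, and PRSS57, a neutrophil serine protease gene, was the only one at 1 CPM or more, at 24.3 CPM per kb. ELANE, which encodes neutrophil elastase, was at 0.0819 CPM per kb. Of 7 further carboxypeptidase genes of the A and B type, 5 were listed and 0 reached 1 CPM, with levels from 0.0236 to 0.0593 CPM per kb. All 5 further tryptase-like protease genes chosen from chromosome 16 were listed, and only PRSS21, which encodes testisin, reached 1 CPM, at 71.0 CPM per kb. For comparison, CPA3 was at 74.8 and the highest tryptase, TPSAB1, at 5.65 CPM per kb.

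All 6 transcription factors known to act on mast cell genes were above 1 CPM. GATA1 is counted both here and among the erythroid and megakaryocytic markers below, so its level is not particular to mast cell genes. GATA2, required for mast cell development, had a mean log2 CPM of 10.14 and was at 297 CPM per kb, and GATA1 was at 164. TAL1 was at 84.6 CPM per kb, STAT5A at 126 and STAT5B at 36.5. MITF, a regulator of mast cell protease genes, was the lowest of them, at 4.91 CPM per kb.

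**Figure D4:**
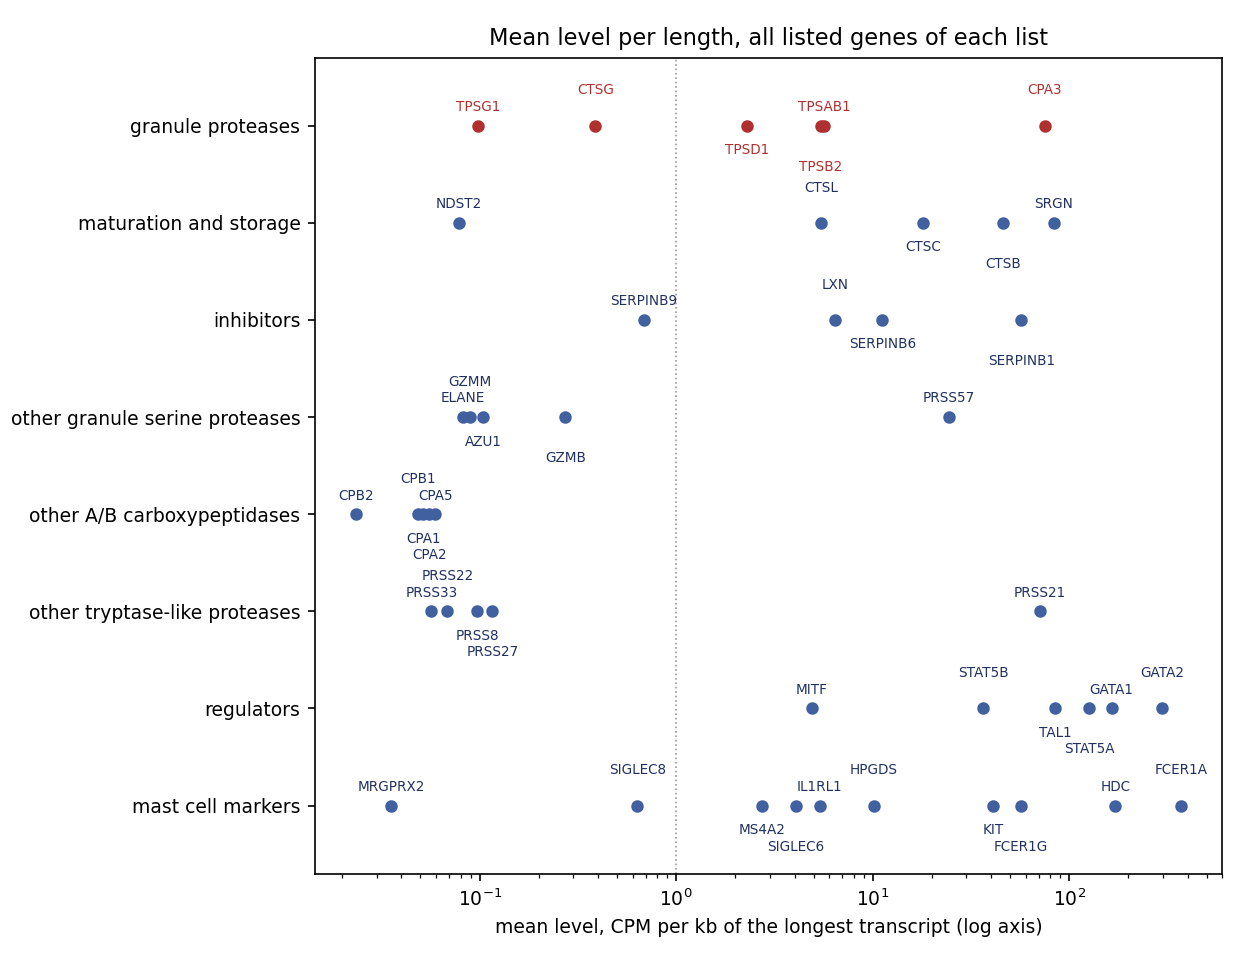
Mean level per length (horizontal axis, CPM per kb of the longest transcript, log axis) of every listed gene in the granule protease group (red) and 7 related lists (blue), with a dotted line at 1 CPM per kb. CPA3, at 74.8, lies close to SRGN (83.3) and PRSS21 (71.0), while the other A and B carboxypeptidases lie below 0.06.

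The labelled cell type was checked against its markers. All 8 erythroid and megakaryocytic markers were listed above 1 CPM, with mean log2 CPM from 5.52 for EPOR, the erythropoietin receptor, to 10.54 for ITGA2B, the platelet integrin subunit. Of 10 mast cell markers, 9 were above 1 CPM. FCER1A, the IgE-binding subunit of the high-affinity IgE receptor, was at 370 CPM per kb, and HDC, the histamine-forming enzyme, at 171. KIT, the stem cell factor receptor, was at 41.1 CPM per kb and MS4A2, the beta subunit of the IgE receptor, at 2.74. MRGPRX2, a receptor of skin mast cells, was at -3.76 on the log2 scale, within 0.01 of the lowest level listed. Neutrophil precursor markers were low, with MPO at -3.32 and ELANE at -3.57 on the log2 scale and PRTN3 not listed. The T cell markers CD3E and CD3D were not listed, and CD2 had a mean log2 CPM of 2.95. Of the B cell markers, CD79A had a mean log2 CPM of 2.32 and MS4A1 was not listed. Of the monocyte markers, LYZ, which encodes lysozyme, had 4.40, CD14 had -2.67 and FCN1 -3.76 on the log2 scale. Per kb, CD2 was at 4.95 CPM, CD79A at 4.55 and LYZ at 14.2, beside 5.65 for TPSAB1, the highest tryptase. CD14, at 0.0956, and FCN1, at 0.00971 CPM per kb, were lower. In bulk RNA, a low level in all cells and a high level in few cells cannot be told apart. Whether cells of another type added to the levels of the protease genes was not tested.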

How the data were processed

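Per the paper's methods, the authors sequenced poly(A) RNA, aligned reads to hg38 with STAR (version 2.6.1b) and counted fragments per gene with HTSeq (version 0.6.1). The table deposited by the authors holds, for each of 31999 genes, a mean log2 CPM over all 6 libraries. It also holds 4 columns of the authors' own test of shTMIGD2 against shCtrl (fold changes, F statistics and raw and adjusted p-values), which were not used. Some genes of the marker lists and neighbourhoods are not reported here. For this comparison the methods name DESeq2, a refSeq annotation and a filter on the mean read count per group, whereas the columns deposited by the authors have the form of edgeR output. Which filter and scaling this table had is not given in the sources used here. The planned test of the hairpins needs counts per library and was not run.

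From the log2 CPM, linear CPM, ranks, sums and CPM per kb were computed (Python 3.11.15, pandas 2.3.3). Positions, lengths and sequences came from GENCODE 44 on GRCh38, the build of the methods. 22987 gene names matched by symbol and 575 by a RefSeq synonym, and a length was found for 92.3% of the genes at 1 CPM or more. The functions that gave the percent of genes below a level, the shared windows and the merged exon lengths were tested on simulated data. Members and gene lists were chosen with earlier results of these data known, and named genes are all members plus list genes with a known role.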

Additional observations from a re-analysis of the deposited data

How the results depend on the processing

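No paired analysis was possible because the values used are means over all 6 libraries, and for the same reason the other normalization, the filter on low counts, DESeq2 and the leaving out of libraries were not run. The count of listed members above the median fell from 5 over all genes to 1 over genes at 1 CPM or more and 1 over protein-coding genes. The first of these alternatives removes low genes by construction, and the median of the genes kept rose from -0.97 to 4.55 and 3.63 on the log2 scale. The count above the median per length was 1 with each length tried, of which the canonical transcript was chosen after seeing the data. The summed tryptase level was 18.8 CPM, 18.65 CPM without TPSG1 and 18.5 CPM with the lowest value listed subtracted from each gene. The share of tryptase windows found in another gene was 29.9% with 100 bases, 38.8% with 50, 33.6% with 75 and 25.4% with 150. Of the 18 levels per kb of single members under another length, 15 changed in the first 3 digits, as did all 12 ranks among other genes. The ratio of CPA3 to the tryptase sum per kb ranged from 4.67 to 6.34. Of the 6 listed members, TPSG1 and CTSG had the lowest levels, with TPSG1 nearest to the lowest value listed. How many reads stand behind these 2 levels is not known.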
